A study of Mus musculus with 6 samples.

Results

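Collagens and laminins are the main structural proteins of the extracellular matrix, and the genes described here are those whose symbol follows the collagen pattern (Col, a number, a and a number) or the laminin pattern (Lama, Lamb or Lamc and a number). Of 24984 genes counted, 55 symbols matched, and 52 of them, 41 collagen and 11 laminin genes, held at least 10 raw counts over the 6 libraries. Symbols and total counts alone made the choice, not differences between groups. Nearest to the limit were Col4a4 with 7 counts, which was left out, and Col28a1 with 12, which was kept.

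RNA was measured in mouse E14TG2a cells, an established embryonic stem cell line, all kept in serum-free N2B27 medium. The 3 groups of 2 libraries were unmodified cells (WT), cells with Mettl3 disrupted by CRISPR/Cas9 (KO), and cells given the METTL3 D395A substitution by CRISPR/Cas9 integration through homology-mediated end joining (D395A). METTL3 carries the catalytic activity of the enzyme complex that deposits N6-methyladenosine (m6A) on RNA, and the stated purpose of the knockout was to examine how m6A and circular RNA interact. The labels do not say whether libraries are separate cultures or how many clones were used, so each p-value covers no more than the spread of the libraries at hand, which may be technical, and genotype and clone cannot be told apart.

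A laminin molecule is a trimer of an alpha, a beta and a gamma chain, which polymerises at the cell surface to start a basement membrane, the thin matrix sheet under epithelia. Collagen IV forms another network there, tied to laminin by nidogen and perlecan. Fibrillar collagens form the cables of connective tissue, while other collagens coat fibrils, build beaded filaments or span the plasma membrane. The first basement membranes of the embryo are rich in laminins with the Lama1 or Lama5 chain and in collagen IV.

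Gene counts ranged from 22859491 to 40476809 per library, so that a single count was worth 0.0246 to 0.0426 CPM, the unit used below, which is a count scaled by library size and a trimmed-mean factor. Mettl3 itself read 28.5 and 31.6 CPM (WT), 7.82 and 6.17 (KO) and 21.1 and 23.4 (D395A). Exons on the opposite strand cover 18.4% of its exon bases, so these values are uncertain if counting ignored strand. All 10 embryonic stem cell markers had counts in each group, and their summed level was 4379 and 4444 CPM (WT), 5188 and 5157 (KO), 2079.8 and 2139.7 (D395A). Of these markers, 5 rose and 3 fell in KO (50% and 30%, beside 33.6% and 32.6% of all genes, median log2 fold change 0.22). In D395A 0 rose and 9 fell (0% and 90%, beside 36.3% and 34.0%, median -1.11). There, 6 fell by at least 2-fold (60%, beside 12.0%). The part of this shift in the D395A results below was not tested. Libraries within a group varied beyond counting error, their chi-square divided by its degrees of freedom being 3.26 (WT), 6.73 (KO) and 11.7 (D395A). Below, a gene is said to have risen or fallen where edgeR's quasi-likelihood test, Benjamini-Hochberg adjusted over 15663 genes, gave an adjusted p under 0.05. Fold changes are log2 values ± SE of that fit. By that test Mettl3 fell by 2.1 ± 0.11 in KO and 0.43 ± 0.1 in D395A (adjusted p = 6.5e-09 and 0.0022).

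Of the 52 genes, 44 had enough counts to be tested. In KO against WT, 21 rose and 8 fell, so 65.9% were called beside 66.2% of all genes. Rises made up 47.7% beside 33.6% of all genes, and falls 18.2% beside 32.6%. The share called was thus close to the background, with more of the calls upward, and the median log2 fold change was 0.76 beside 0.01 over all genes. A change of at least 2-fold was called upward in 16 genes (36.4%) and downward in 4 (9.09%), beside 13.7% and 10.6% of all genes, or 24.3% in either direction.

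In D395A against WT, 22 rose and 11 fell (75% called, beside 70.3% of all genes), with rises at 50% beside 36.3% and falls at 25% beside 34.0%. The median was 0.68 beside 0.02. At 2-fold or more, 17 were higher and 8 lower, 38.6% and 18.2%, beside 17.0% and 12.0% of all genes and 29.0% in either direction. The direct test of D395A against KO called 12 higher and 16 lower in D395A (63.6%, beside 50.4% of all genes; 26.5% were higher and 23.8% lower). Its median was -0.31 beside 0.04, and at 2-fold or more 10 were higher and 9 lower, beside 8.38%, 7.56% and, in either direction, 15.9% of all genes.

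A gene silent in WT could pass the filter on low counts only by being present in a mutant line. These shares, and those of the classes and lists below, therefore describe the tested genes and not the families. Both comparisons with WT use the same WT libraries. In bulk RNA, fewer cells of a type and less RNA per cell cannot be told apart. DESeq2, run as an alternative, did not call Col11a2, Col17a1, Col1a1 or Col7a1 in KO, nor Col11a2, Col6a2, Col6a3, Col8a1, Col9a2 or Lamc3 in D395A.

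Promoter sequences of 4 genes are printed because their levels were distributed differently over the lines. Lama5 was higher in both mutant lines, Col5a1 was called higher in KO and Lama2 in D395A, and Col4a6 had no counts in WT. Each run is the 250 bases before the RefSeq start site (GRCm38.p6), 5′ to 3′ on the gene's own strand, and overlaps no exon of the GENCODE M21 annotation. Capitals mark the GC box, searched as GGGCGG on both strands, the core of the sequence that SP family factors bind. The windows lie at chr2:180225860-180226109 on the minus strand for Lama5, chr2:27886175-27886424 on the plus strand for Col5a1, chr10:27616943-27617192 on the minus strand for Lama2, and chrX:141474077-141474326 on the minus strand for Col4a6. The Lama2 window lies in an intron of the GENCODE gene model, whose 5′ end is 2816 bases upstream of the RefSeq start, and the other 3 windows lie just outside theirs.
Lama5: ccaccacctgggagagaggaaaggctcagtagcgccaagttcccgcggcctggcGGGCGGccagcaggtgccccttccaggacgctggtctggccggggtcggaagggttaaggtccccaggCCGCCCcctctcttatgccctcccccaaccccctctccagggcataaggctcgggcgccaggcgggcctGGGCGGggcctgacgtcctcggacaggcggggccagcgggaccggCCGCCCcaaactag
Col5a1: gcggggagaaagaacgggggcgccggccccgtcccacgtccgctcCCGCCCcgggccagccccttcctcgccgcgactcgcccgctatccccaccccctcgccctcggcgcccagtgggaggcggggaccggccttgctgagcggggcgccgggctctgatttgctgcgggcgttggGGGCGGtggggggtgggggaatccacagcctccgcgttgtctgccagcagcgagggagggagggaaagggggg
Lama2: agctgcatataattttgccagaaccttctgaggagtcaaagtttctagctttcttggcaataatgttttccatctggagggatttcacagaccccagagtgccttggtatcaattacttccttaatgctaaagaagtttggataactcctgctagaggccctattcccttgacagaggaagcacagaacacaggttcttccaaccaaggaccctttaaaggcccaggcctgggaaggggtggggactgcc
Col4a6: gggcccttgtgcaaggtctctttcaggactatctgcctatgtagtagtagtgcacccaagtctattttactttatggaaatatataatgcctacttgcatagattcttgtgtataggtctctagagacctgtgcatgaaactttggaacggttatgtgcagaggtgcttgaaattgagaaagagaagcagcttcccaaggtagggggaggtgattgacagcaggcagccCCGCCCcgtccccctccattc

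The Lama5 window held 4 GC boxes and the Col5a1 window 2, with G and C at 72.4% and 76.4% of bases. The Col4a6 window held 1 and the Lama2 window 0, at 47.6% and 47.2%. RefSeq windows were matched for 38 of the 52 genes, and 57.1% of their 42 windows held the GC box beside 32.7% of all 32851 windows. TATAAA was found in 11.9% beside 12.4%, CCAAT in 33.3% beside 33.9%, and AGATAA, a sequence recognised by GATA factors, in 4.76% beside 9.99%, each on both strands. These are matches of letters, not tested sites. The 32851 windows were not limited to genes with counts in these cells, so a difference from them cannot be assigned to these families.

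Along the longest coding transcript, GGACT, the best known m6A consensus core, occurred at a median of 1.67 per kb over 41 collagen genes and 1.21 per kb over 11 laminin genes, beside 1.06 per kb over 14407 tested protein-coding genes. The related GGACC stood at 4.58 and 1.61 per kb, beside 1.10 per kb. Collagen quartiles were 1.32 and 2.1 per kb for GGACT and 3.46 and 5.38 for GGACC. All tested protein-coding genes had GGACC quartiles of 0.619 and 1.75. For GGACT the quartiles of the laminin genes, 0.624 and 1.42 per kb, lay close to those of all tested protein-coding genes, 0.648 and 1.53. Laminin genes ran from 0.511 to 1.89 GGACT per kb, with Lama1 the highest. Lama1 carried 18 GGACT and 17 GGACC, Lama5 14 and 30, and Col4a2 14 and 37. Methylation at these sequences was not measured here. The densities were not adjusted for base, codon or repeat content, so a high value is not evidence of more m6A sites.

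Laminin alpha chains changed in opposite directions. For Lama1 (chr17:67697259-67822647, plus strand), the main alpha chain of the earliest embryonic basement membranes, the WT libraries held 205 and 209.6 CPM, the KO libraries 132 and 125, and the D395A libraries 28.7 and 33.4. The groups did not overlap and lay in the order WT, KO, D395A. Lama1 fell by 0.69 ± 0.07 in KO (adjusted p = 2.4e-06) and by 2.73 ± 0.08 in D395A (adjusted p = 2.9e-11), and D395A minus KO was -2.05 ± 0.08 (adjusted p = 6.8e-10). Lama5 (chr2:180176373-180225859, minus strand), the alpha chain of most later epithelial basement membranes, read 176 and 171 CPM (WT), 559 and 539 (KO) and 409 and 445 (D395A). Here WT was the lowest group and KO the highest, again without overlap. Lama5 rose by 1.66 ± 0.07 in KO (adjusted p = 7.3e-10) and by 1.3 ± 0.07 in D395A (adjusted p = 4.9e-09), and D395A minus KO was -0.36 ± 0.07 (adjusted p = 0.00066).

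Different genes are compared as CPM per kb of exon, counting every base in any annotated exon of a gene. This length can exceed the longest coding transcript, as in Lama4 (12068 beside 6046 bases) and Lamb1 (9917 beside 5784). Shares on this scale depend on that choice. On that scale, Lama1 made up 55.2% and 56.4% of the summed alpha chain level in the WT libraries, 21% and 20.6% in those of KO and 7.5% and 7.96% in those of D395A. Lama5 made up 40.3% and 39.2% in WT, 75.3% and 75.3% in KO libraries and 90.9% and 90.1% in D395A libraries. The leading alpha chain was Lama1 in both WT libraries and Lama5 in the other 4. Summed over the chains, the level was 38.3 ± 0.0444 CPM per kb (WT), 64 ± 1.68 (KO) and 41.4 ± 2.7 (D395A; SD, n = 2).

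**Figure D1:**
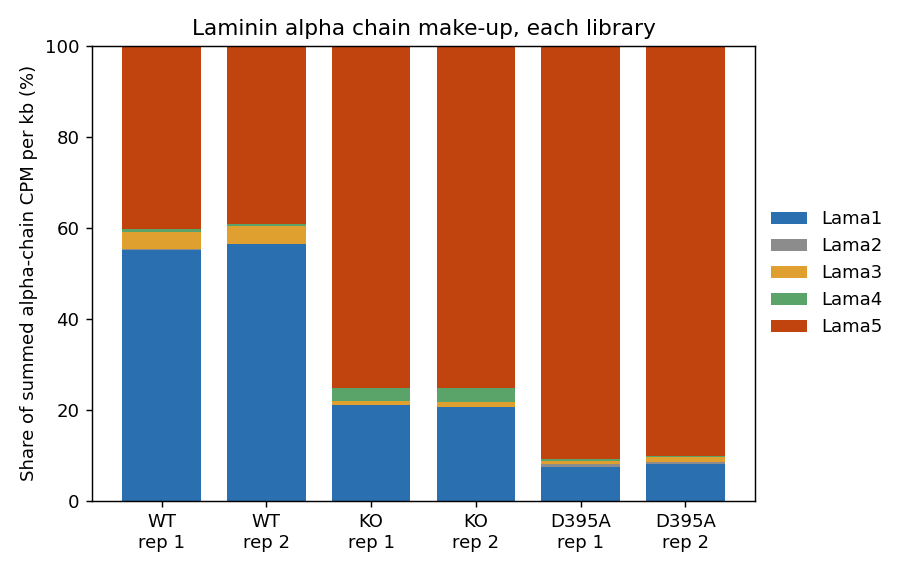
Share of each laminin alpha chain gene in the summed alpha chain level (vertical axis, percent of CPM per kb of exon), with 1 stacked bar per library. Lama1 holds the largest share in both WT libraries (55.2% and 56.4%), and Lama5 does in the KO libraries (75.3% and 75.3%) and the D395A libraries (90.9% and 90.1%).

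Lama4 and Lama2 differed between the mutant lines. For Lama4 (chr10:38965515-39110188, plus strand), a short alpha chain of vessels, nerve and muscle, the WT libraries held 2.43 and 1.98 CPM, the KO libraries 21.5 and 22.2, and the D395A libraries 1.62 and 1.996. KO was the high group, while WT and D395A overlapped. Lama4 rose by 3.3 ± 0.14 in KO (adjusted p = 7.6e-10), differed from WT by -0.27 ± 0.18 in D395A (adjusted p = 0.19), and D395A minus KO was -3.57 ± 0.15 (adjusted p = 1.2e-09). Lama2, the alpha chain of muscle and peripheral nerve, read 0.418 and 0.331 CPM (WT), 0.512 and 0.663 (KO) and 2.94 and 3.16 (D395A), so that D395A was the high group. It rose by 3.01 ± 0.41 there (adjusted p = 2.7e-05), exceeded KO by 2.37 ± 0.39 (adjusted p = 0.00028), and differed from WT by 0.64 ± 0.43 in KO (adjusted p = 0.21). Lama3, an alpha chain of epithelial attachment sites, was highest in WT, with 16.1 and 15.8 CPM (WT), 6.54 and 7.46 (KO) and 3.24 and 5.02 (D395A). It fell by 1.19 ± 0.15 and 1.91 ± 0.16 in KO and D395A (adjusted p = 1.5e-05 and 3.4e-07).

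Beta chains rose in both lines. Lamb1, a beta chain of the early embryonic laminins, read 34.1 and 34.1 CPM (WT), 67.6 and 66.1 (KO) and 49.3 and 50.5 (D395A). Lamb2, the beta chain known from synapses and kidney, read 61.5 and 58.5 CPM (WT), 109 and 110.1 (KO) and 85.2 and 89.4 (D395A). Neither gene's groups overlapped, and KO was highest each time. Lamb1 rose by 0.97 ± 0.06 and 0.55 ± 0.06 in KO and D395A (adjusted p = 2.8e-08 and 5.6e-06), and Lamb2 by 0.87 ± 0.06 and 0.54 ± 0.06 (adjusted p = 7.3e-08 and 5.8e-06). Of the beta chain sum per kb, Lamb2 held 73.2% and 72.6% in WT, 70.6% and 71.4% in KO libraries and 72.3% and 72.6% in D395A libraries. Lamb3, the beta partner of Lama3, read 1.67 and 1.27 CPM (WT), 4.38 and 3.86 (KO) and 2.6 and 2.97 (D395A) and rose by 1.48 ± 0.24 in KO and 0.92 ± 0.25 in D395A (adjusted p = 0.00015 and 0.0054). The D395A value became 0.73 without WT replicate 2 (adjusted p = 0.053).

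Among gamma chains, Lamc1, shared by most laminins, had the highest level per kb of all 52 genes in each group and took 38.7% to 51.1% of their summed counts. It read 689.9 and 681 CPM (WT), 759 and 791 (KO) and 687 and 796 (D395A), and the D395A libraries spanned the KO values. Its differences from WT were 0.18 ± 0.08 in KO (adjusted p = 0.056) and 0.11 ± 0.08 in D395A (adjusted p = 0.199); DESeq2, limma-voom and 3 other settings with all libraries or only those compared put the KO value, 0.17 to 0.19, under the threshold. Lamc3 was near the limit of counting, with 26 and 13 counts (WT), 17 and 9 (KO) and 4 and 2 (D395A). Its D395A value of -2.22 ± 0.81 (adjusted p = 0.027) became -1.72 without WT replicate 1 (adjusted p = 0.19), -1.54 without D395A replicate 2 (adjusted p = 0.21) and -3.1 without D395A replicate 1.

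**Figure D2:**
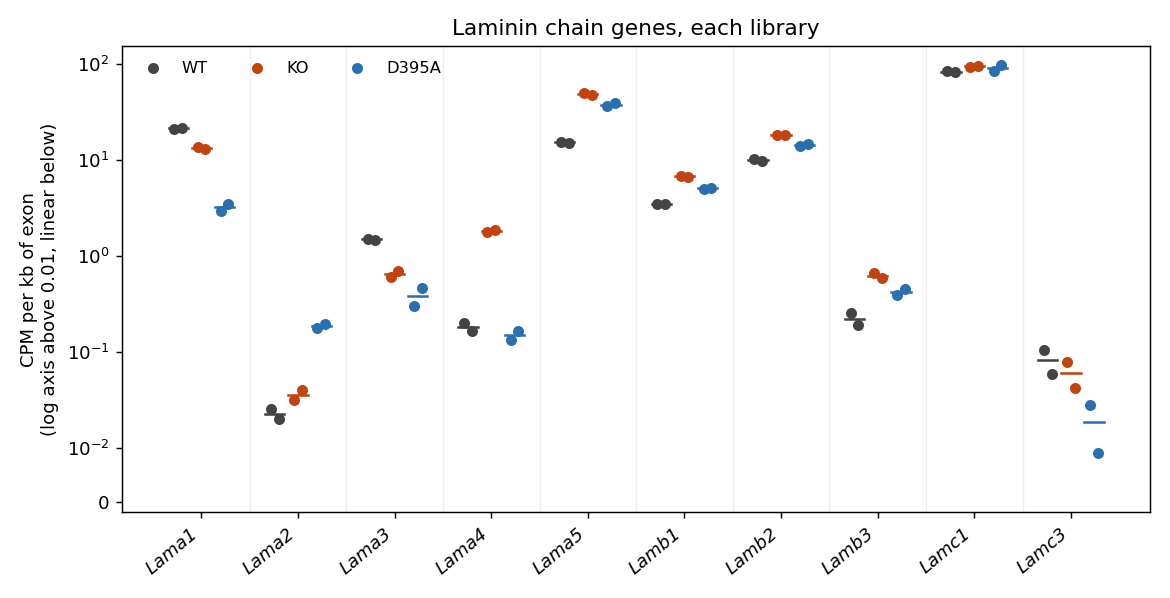
Level of 10 laminin chain genes (vertical axis, CPM per kb of exon, logarithmic above 0.01 and linear below) in each of the 6 libraries, with a point per library and a line at each group mean. Lama1 steps down from WT to KO to D395A, Lama4 stands high in KO and Lama2 in D395A.

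The main chains of collagen IV, the network collagen of basement membranes, rose in both lines. For Col4a1 (chr8:11198423-11312826, minus strand), the WT libraries held 7.42 and 7.94 CPM, the KO libraries 26.2 and 26.1, and the D395A libraries 13.7 and 13.2. Col4a2 (chr8:11312805-11449287, plus strand), the other chain of the most widespread collagen IV trimer, read 5.02 and 5.21 CPM (WT), 31.7 and 32.6 (KO) and 14.7 and 13.1 (D395A). In each case WT was lowest and KO highest, without overlap. Col4a1 rose by 1.77 ± 0.09 and 0.81 ± 0.09 in KO and D395A (adjusted p = 3.8e-09 and 6.7e-06), and Col4a2 by 2.65 ± 0.095 and 1.44 ± 0.102 (adjusted p = 2.6e-10 and 6.7e-08). D395A minus KO was -0.96 ± 0.09 for Col4a1 and -1.22 ± 0.09 for Col4a2 (adjusted p = 1.3e-06 and 1.7e-07). The genes are transcribed away from each other and their annotated 5′ ends overlap by 22 bases. Over all tested genes of their chromosome, 8, the median log2 fold change was -0.48 in KO and -0.35 in D395A.

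The make-up of collagen IV differed too. Of its summed level per kb, Col4a1 held 55.9% and 56.2% and Col4a2 42.6% and 41.6% in the WT libraries. In KO, Col4a2 led with 57% and 58% against 41.7% and 41.2% for Col4a1, and in D395A with 49.5% and 47.3% against 40.9% and 42.1%. Most of the remainder in D395A was Col4a5 (6.78% and 6.7%) and Col4a6 (2.62% and 3.65%), another divergent pair, with start sites 1309 bases apart on chromosome X. Col4a5, a chain of kidney and other specialised basement membranes, read 0.172 and 0.248 CPM (WT), 0.626 and 0.317 (KO) and 2.04 and 1.89 (D395A). It rose in D395A by 3.21 ± 0.56 (adjusted p = 0.00024) and exceeded KO by 2.05 ± 0.52 (adjusted p = 0.0057), with 1.16 ± 0.58 for KO against WT (adjusted p = 0.097). Col4a6, which joins it in a trimer, had 0 and 0 counts (WT), 4 and 4 (KO) and 22 and 44 (D395A). Scaled for library size, its observed counts stood 2.94-fold (KO) and 28.4-fold (D395A) above a floor of 3 counts over the WT group. Counting error of the KO and D395A counts is not included.

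Col18a1, a basement membrane collagen whose end fragment is endostatin, read 34.8 and 36.5 CPM (WT), 59 and 58.2 (KO) and 39.7 and 46.1 (D395A). It rose by 0.72 ± 0.08 in KO (adjusted p = 2.8e-06). The D395A value of 0.27 ± 0.08 (adjusted p = 0.0068) became 0.23 without WT replicate 1 (adjusted p = 0.079) and 0.15 without D395A replicate 2 (adjusted p = 0.097). Of the 5 basement membrane collagens tested, 4 rose in KO and 5 in D395A, and 0 fell in either, beside 33.6% of all genes higher and 32.6% lower in KO and 36.3% and 34.0% in D395A. Col4a6, without counts in WT, passed the filter on low counts only through D395A and could not have been called lower than WT.

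Collagen V, a fibrillar collagen that starts the assembly of collagen fibrils, had its Col5a1 chain highest in KO and its Col5a2 chain highest in D395A. For Col5a1 (chr2:27886425-28039514, plus strand), the WT libraries held 13.9 and 13.5 CPM, the KO libraries 59.5 and 59.3, and the D395A libraries 12 and 14. KO was the high group, and the D395A libraries spanned the WT values. Col5a1 rose by 2.12 ± 0.08 in KO (adjusted p = 3.5e-10), differed from WT by -0.0626 ± 0.09 in D395A (adjusted p = 0.55), and D395A minus KO was -2.18 ± 0.08 (adjusted p = 6.2e-10). Col5a2 (chr1:45374321-45503282, minus strand), its partner chain, was highest in D395A, with 0.86 and 1.27 CPM (WT), 2.05 and 1.61 (KO) and 9.24 and 10.01 (D395A). It rose by 3.18 ± 0.22 there (adjusted p = 6.5e-08) and by 0.79 ± 0.25 in KO (adjusted p = 0.013). That KO value became 0.53 without WT replicate 1 (adjusted p = 0.11) and 0.61 without KO replicate 1 (adjusted p = 0.074).

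Col5a3, the minor chain of collagen V, was lowest in D395A, with 1.48 and 1.41 CPM (WT), 2.33 and 2.13 (KO) and 0.213 and 0.0555 (D395A). It fell there by 3.53 ± 0.55 (adjusted p = 8.2e-05), with -4.61 without D395A replicate 1 and -2.74 without D395A replicate 2. In KO it differed from WT by 0.63 ± 0.39 (adjusted p = 0.17). Per kb, Col5a2 made up 4.63% and 6.86% of collagen V in WT, 2.82% and 2.25% in KO libraries and 40.1% and 38.6% in D395A libraries. Col5a1 kept the largest share in every library. Col5a2 has 9591 exon bases beside 6625 in its longest coding transcript, and Col5a1 8490 beside 8406. On transcript length the Col5a2 share would be larger.

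**Figure D3:**
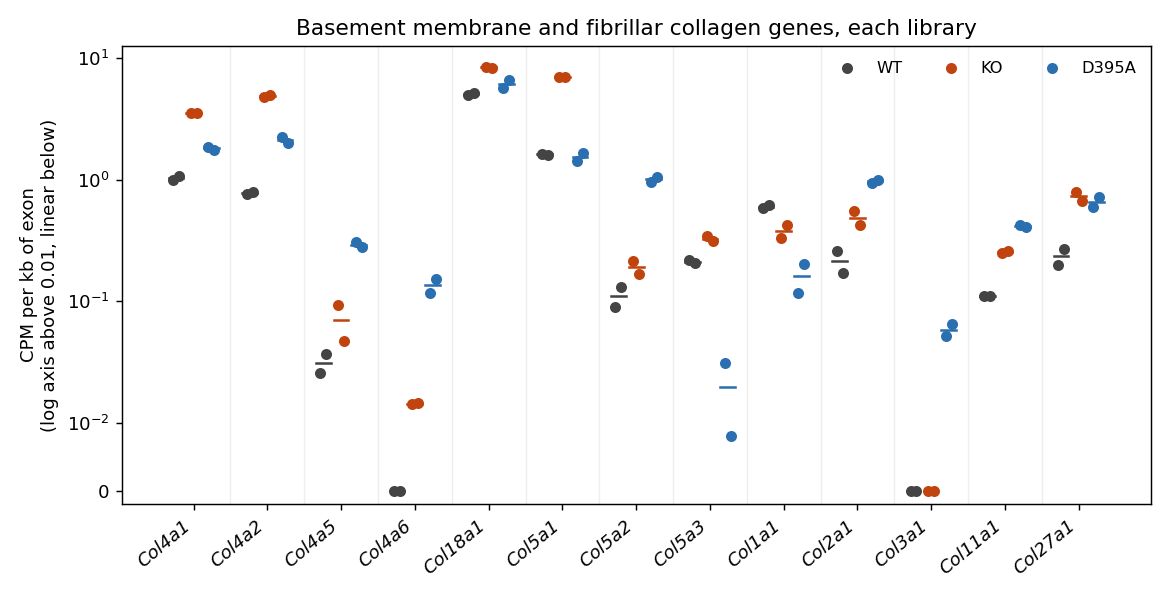
Level of 13 basement membrane and fibrillar collagen genes (vertical axis, CPM per kb of exon, logarithmic above 0.01 and linear below) in each of the 6 libraries, with a point per library and a line at each group mean. Col4a1, Col4a2 and Col5a1 are highest in KO, while Col4a5, Col4a6, Col5a2 and Col3a1 are highest in D395A.

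Col2a1 and Col11a1 rose in both lines. Col2a1, the main collagen of cartilage, read 2.41 and 1.57 CPM (WT), 5.09 and 3.92 (KO) and 8.69 and 9.18 (D395A). Col11a1, which joins it in fibrils, read 1.4 and 1.41 CPM (WT), 3.16 and 3.28 (KO) and 5.37 and 5.24 (D395A). The groups of both genes were separate, with WT lowest. They rose by 1.17 ± 0.21 and 1.2 ± 0.21 in KO (adjusted p = 0.00037 and 0.00027) and by 2.16 ± 0.21 and 1.91 ± 0.21 in D395A (adjusted p = 1.2e-06 and 3.6e-06), and D395A exceeded KO by 0.99 ± 0.19 and 0.72 ± 0.19 (adjusted p = 0.00101 and 0.0084). Col27a1, a shorter fibrillar collagen also found in cartilage, read 2.61 and 3.5 CPM (WT), 10.3 and 8.73 (KO) and 7.71 and 9.4 (D395A). It rose by 1.64 ± 0.17 in KO and 1.5 ± 0.17 in D395A (adjusted p = 2.6e-06 and 6.3e-06).

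Col11a2, another chain of the Col11a1 trimer, had only 2 and 9 counts (WT), 19 and 19 (KO) and 16 and 16 (D395A). Its values of 1.87 ± 0.75 in KO and 1.91 ± 0.76 in D395A (adjusted p = 0.043 and 0.0399) became 1.12 and 1.15 without WT replicate 1 (adjusted p = 0.28 and 0.26) and 3.37 and 3.4 without WT replicate 2. Leaving out a KO or D395A library raised the adjusted p of the KO value to between 0.066 and 0.085, and that of the D395A value to 0.18 without D395A replicate 1 and 0.068 without D395A replicate 2.

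Collagens I and III, the abundant collagens of skin, bone and vessel walls, were low. Col1a1 read 3.81 and 4.05 CPM (WT), 2.16 and 2.77 (KO) and 0.767 and 1.33 (D395A), without overlap between groups. It fell by 1.86 ± 0.295 in D395A (adjusted p = 9.998e-05). The KO value of -0.67 ± 0.27 (adjusted p = 0.042) became -0.72, -0.63 and -0.502 without WT replicate 1, WT replicate 2 and KO replicate 1 (adjusted p = 0.14, 0.19 and 0.16). Genes of its chromosome, 11, had median log2 fold changes of -0.42 in KO and -0.49 in D395A, and their part in the result was not tested. Col3a1 (chr1:45311538-45349706, plus strand) had 0 and 0 counts (WT), 0 and 0 (KO) and 12 and 23 (D395A). Scaled for library size, the observed D395A counts stood 15.1-fold above the same floor in WT and 13.7-fold above it in KO. Of 9 fibrillar collagens tested, 6 rose and 1 fell in KO (all genes: 33.6% and 32.6%), and 6 rose and 2 fell in D395A (all genes: 36.3% and 34.0%). Col3a1 passed the filter on low counts only through D395A and could not have been called lower there.

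The list of fibril-associated collagens, most of which sit on the surface of fibrils, held 8 tested genes, with Col26a1 counted among them. In KO 3 rose and 2 fell, 37.5% and 25% beside 33.6% and 32.6% of all genes. In D395A 2 rose and 2 fell, 25% each beside 36.3% and 34.0%. These shares, for calls of any size, lay near the background or below it in both lines. At 2-fold or more, 3 rose and 1 fell in KO (37.5% and 12.5%, beside 13.7% and 10.6% of all genes). In D395A 2 rose and 0 fell by that much (25% and 0%, beside 17.0% and 12.0%). Col9a2, a chain of cartilage fibrils, read 7.84 and 8.35 CPM (WT), 25.4 and 20.9 (KO) and 5.71 and 7.01 (D395A). KO was the high group. Col9a2 rose there by 1.52 ± 0.12 (adjusted p = 2.6e-07), and D395A minus KO was -1.85 ± 0.13 (adjusted p = 1.4e-07). The D395A value of -0.33 ± 0.14 (adjusted p = 0.048) became -0.38, -0.29 and -0.203 without WT replicate 1, WT replicate 2 and D395A replicate 1 (adjusted p = 0.082, 0.17 and 0.27). Its partner Col9a3 passed no test, at 0.902 ± 0.128 (WT), 0.858 ± 0.114 (KO), 0.505 ± 0.00848 (D395A) CPM (SD, n = 2).

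Col20a1 read 4.82 and 5.46 CPM (WT), 14 and 12 (KO) and 11.1 and 10.1 (D395A) and rose by 1.34 ± 0.13 in KO and 1.04 ± 0.13 in D395A (adjusted p = 1.05e-06 and 1.3e-05). Col16a1, a minor collagen of fibrils and microfibrils, was nearly without counts in WT, with 2 and 3 counts (WT), 46 and 37 (KO) and 14 and 18 (D395A). It rose by 4.11 ± 0.66 in KO (adjusted p = 0.00012) and 2.99 ± 0.68 in D395A (adjusted p = 0.0017). Col22a1, a collagen of tissue junctions, was lowest in KO, with 2.66 and 3.09 CPM (WT), 0.882 and 1.3 (KO) and 2.51 and 3.11 (D395A). It fell there by 1.4 ± 0.296 (adjusted p = 0.0011), and D395A, whose libraries spanned the WT values, exceeded KO by 1.37 ± 0.300 (adjusted p = 0.0021). Col26a1 was highest in WT, with 7.57 and 6.56 CPM (WT), 4.07 and 4.06 (KO) and 3.58 and 3.74 (D395A), and fell by 0.798 ± 0.15 in KO and 0.95 ± 0.16 in D395A (adjusted p = 0.00049 and 0.00014). Col12a1 and Col14a1 passed no test, and Col14a1 differed within both mutant lines, with 2 and 7 counts (WT), 13 and 0 (KO) and 1 and 20 (D395A).

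Transmembrane collagens are anchored in the cell surface. Of 3 tested, 1 rose and 1 fell in KO, beside 33.6% and 32.6% of all genes, and 0 rose and 2 fell in D395A, beside 36.3% and 34.0%. Col13a1, found at cell adhesion sites, read 4.28 and 5.62 CPM (WT), 1.88 and 1.01 (KO) and 0.511 and 0.471 (D395A), without overlap. It fell by 1.77 ± 0.31 in KO (adjusted p = 0.00025) and 3.33 ± 0.36 in D395A (adjusted p = 3.5e-06). Col17a1, a part of hemidesmosomes, was highest in KO and lowest in D395A, with 2.02 and 1.54 CPM (WT), 3.21 and 2.71 (KO) and 0.894 and 0.887 (D395A), and D395A minus KO was -1.73 ± 0.32 (adjusted p = 0.00062). Against WT it was 0.73 ± 0.29 in KO and -0.998 ± 0.32 in D395A (adjusted p = 0.043 and 0.014). Without WT replicate 1 these became 0.94 and -0.796 (adjusted p = 0.073 and 0.11), and the KO value became 0.55 without WT replicate 2 and 0.61 without KO replicate 1 (adjusted p = 0.24 and 0.18). Col23a1 passed no test, with 0.59 and 0.634 CPM (WT), 1.48 and 0.749 (KO) and 1.06 and 1.41 (D395A).

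Collagens of beaded filaments, short-chain networks and anchoring fibrils were low. Col6a1, which joins Col6a2 and Col6a3 in the beaded filaments of collagen VI, had 3 and 6 counts (WT), 13 and 9 (KO) and 25 and 30 (D395A). It rose in D395A by 2.96 ± 0.68 (adjusted p = 0.0018), or by 3.61 without WT replicate 2. Col6a2 was also highest in D395A, with 7 and 14 counts (WT), 6 and 11 (KO) and 23 and 28 (D395A). Its D395A value of 1.65 ± 0.64 (adjusted p = 0.036) became 1.17, 1.48 and 1.81 without WT replicate 1, D395A replicate 1 and D395A replicate 2 (adjusted p = 0.23, 0.15 and 0.087), and 2.32 without WT replicate 2. Col6a3 was lowest in D395A, with 27 and 13 counts (WT), 3 and 9 (KO) and 0 and 5 (D395A). Its D395A value of -2.63 ± 0.98 (adjusted p = 0.029) became -2.15, -3.03 and -1.86 without WT replicate 1, WT replicate 2 and D395A replicate 1 (adjusted p = 0.19, 0.058 and 0.16), and -7.14 without D395A replicate 2.

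Col6a5 was lowest in KO, with 55 and 25 counts (WT), 7 and 6 (KO) and 15 and 21 (D395A). Its KO value of -2.44 ± 0.601 (adjusted p = 0.0032) became -1.87 without WT replicate 1 (adjusted p = 0.063). Col6a4 passed no test, with 0.885 and 0.551 CPM (WT), 0.967 and 1.15 (KO) and 0.894 and 1.08 (D395A). Col7a1, the anchoring fibril collagen of skin, had 18 and 20 counts (WT), 59 and 30 (KO) and 15 and 12 (D395A), and its highest value rested on KO replicate 1. The KO value of 1.35 ± 0.55 (adjusted p = 0.046) became 1.2, 1.51 and 0.801 without WT replicate 1, WT replicate 2 and KO replicate 1 (adjusted p = 0.198, 0.12 and 0.33).

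Col10a1, the collagen of hypertrophic cartilage, had 0 and 0 counts (WT), 5 and 7 (KO) and 20 and 16 (D395A). Scaled for library size, its observed counts stood 4.41-fold (KO) and 15.5-fold (D395A) above the WT floor. Col8a1, a short-chain collagen of vessels and cornea, had 1 and 1 counts (WT), 0 and 0 (KO) and 10 and 11 (D395A). In D395A it was 13.6-fold higher (exact 95% interval 3.32 to 119, counting error only) than in WT, with an adjusted p of 0.00897 that became 0.084 and 0.074 without WT replicates 1 and 2. The class held 8 tested genes. In KO 2 rose and 1 fell (25% and 12.5%, beside 33.6% and 32.6% of all genes), and in D395A 4 rose and 1 fell (50% and 12.5%, beside 36.3% and 34.0%). Genes such as Col10a1 and Col8a1, at 0 or 1 counts per WT library, passed the filter on low counts only through D395A.

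The remaining 8 genes, Col15a1, Col1a2, Col24a1, Col25a1, Col28a1, Col6a6, Col8a2 and Col9a1, held 12 to 47 counts each, at most 0.289 CPM as a group mean, and were not tested. A group with 0 counts allowed up to 0.0390 CPM in WT, 0.0429 in KO and 0.0504 in D395A.

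**Figure D4:**
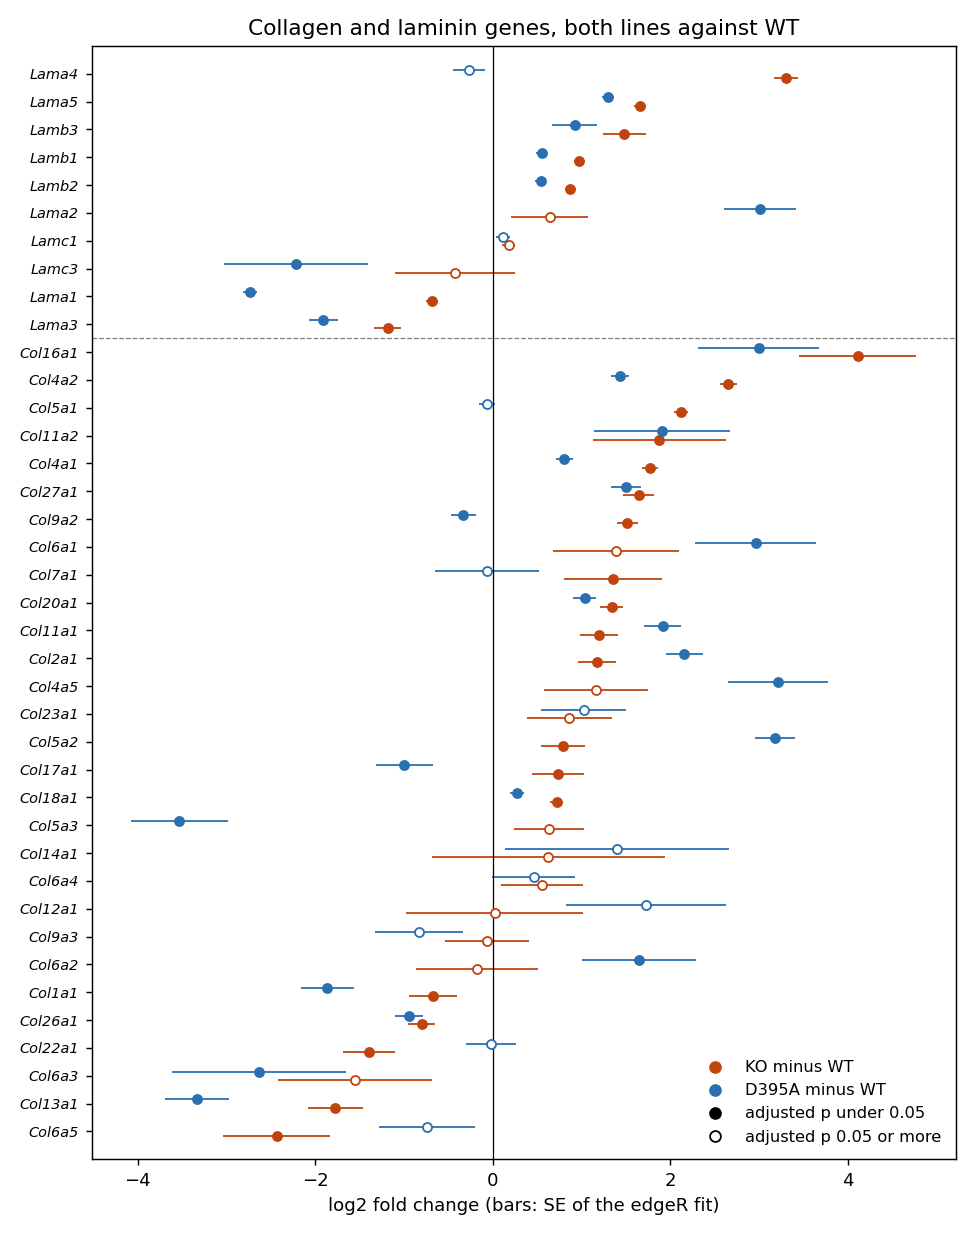
Log2 fold changes against WT (horizontal axis, bars are the SE of the edgeR fit) of 39 tested genes in KO and D395A, with laminins above and collagens below the dashed line; filled points have an adjusted p under 0.05. The KO points of Lama4 and Col5a1 lie at 3.3 ± 0.14 and 2.12 ± 0.08, and the D395A points of Lama2 and Col5a2 at 3.01 ± 0.41 and 3.18 ± 0.22; 4 genes with 3 counts or fewer in a group are left out.

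Other basement membrane proteins, 19 tested of a list of 20, rose in 13 cases and fell in 2 in KO (68.4% and 10.5%, beside 33.6% and 32.6% of all genes; median 1.01), and rose in 9 and fell in 6 in D395A (47.4% and 31.6%, beside 36.3% and 34.0%; median 0.63). Fras1, a protein of embryonic epithelial basement membranes, read 1.6 and 1.9 CPM (WT), 34.9 and 36.3 (KO) and 76.3 and 84.6 (D395A), and rose by 4.35 ± 0.11 in KO and 5.53 ± 0.11 in D395A (adjusted p = 2.1e-11 and 4.02e-12). Its partner Frem1 had 1 and 0 counts (WT), 2 and 6 (KO) and 83 and 160 (D395A). In D395A Frem1 was 314-fold higher (exact 95% interval 55.8 to 12456, counting error only) than in WT (adjusted p = 7.9e-07). Tinagl1, a matrix glycoprotein of basement membranes, was highest in KO, with 4.47 and 4.52 CPM (WT), 23.5 and 23.8 (KO) and 4.64 and 3.96 (D395A), and rose there by 2.39 ± 0.11 (adjusted p = 1.7e-09). Smoc1, a calcium-binding matrix protein, was highest in WT, with 55.1 and 56.9 CPM (WT), 23.1 and 21.8 (KO) and 6.43 and 7.21 (D395A), and fell by 1.32 ± 0.07 and 3.03 ± 0.09 in KO and D395A (adjusted p = 8.2e-09 and 2.5e-11). Sparc, which binds collagen, fell in D395A by 1.38 ± 0.08 (adjusted p = 1.8e-08). In KO it rose by 0.301 ± 0.08 (adjusted p = 0.0054), or 0.23 without WT replicate 2 (adjusted p = 0.11). The proteoglycan Spock2 fell by 0.66 ± 0.17 in KO and 0.93 ± 0.17 in D395A (adjusted p = 0.0039 and 0.00038).

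Among 31 tested genes of collagen synthesis and processing, 15 rose and 9 fell in KO (48.4% and 29%, beside 33.6% and 32.6% of all genes; median 0.46), and 16 rose and 9 fell in D395A (51.6% and 29%, beside 36.3% and 34.0%; median 0.34). Fkbp10, a prolyl isomerase and chaperone for procollagen, was highest in KO, with 5.16 and 4.6 CPM (WT), 56.3 and 54.1 (KO) and 17 and 18.1 (D395A), and rose by 3.5 ± 0.09 in KO and 1.85 ± 0.096 in D395A (adjusted p = 1.95e-11 and 4.1e-09). P3h4, part of a collagen-modifying complex, read 4.82 and 4.27 CPM (WT), 31.2 and 29 (KO) and 16.5 and 15.4 (D395A) and rose by 2.72 ± 0.101 and 1.8 ± 0.11 in KO and D395A (adjusted p = 3.1e-10 and 1.2e-08). Adamts3, a procollagen protease, was highest in D395A, with 1.06 and 1.02 CPM (WT), 1.17 and 1.7 (KO) and 10.5 and 11.1 (D395A), and rose there by 3.38 ± 0.21 (adjusted p = 2.1e-08). P3h2, a prolyl hydroxylase that acts on collagen IV, had 9 and 3 counts (WT), 4 and 6 (KO) and 44 and 92 (D395A) and rose in D395A by 3.82 ± 0.61 (adjusted p = 0.000104), or by 4.68 without WT replicate 1. Exons on the opposite strand cover 28.4% of its exon bases, so that value is uncertain if counting ignored strand.

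Loxl2, which crosslinks collagen IV, was highest in WT, with 6.83 and 6.61 CPM (WT), 0.711 and 0.72 (KO) and 1.49 and 1.72 (D395A). It fell by 3.23 ± 0.23 in KO and 2.05 ± 0.21 in D395A (adjusted p = 8.1e-08 and 2.2e-06). P4ha2, a subunit of a collagen prolyl hydroxylase, fell by 1.79 ± 0.14 in KO and 1.58 ± 0.14 in D395A (adjusted p = 2.4e-07 and 6.9e-07). Pcolce2, an enhancer of procollagen cleavage, fell by 0.55 ± 0.09 in KO and 3.36 ± 0.11 in D395A (adjusted p = 9.2e-05 and 9.2e-11), and D395A minus KO was -2.81 ± 0.12 (adjusted p = 1.2e-09).

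Receptors for collagen and laminin, 17 tested of 20, rose in 10 cases and fell in 3 in KO (58.8% and 17.6%, beside 33.6% and 32.6% of all genes; median 0.33), and rose in 5 and fell in 7 in D395A (29.4% and 41.2%, beside 36.3% and 34.0%; median -0.26). Ddr2, a receptor tyrosine kinase for fibrillar collagen, was highest in WT, with 37.7 and 37.8 CPM (WT), 3.38 and 4.96 (KO) and 5.88 and 6.24 (D395A). It fell by 3.18 ± 0.13 in KO and 2.63 ± 0.13 in D395A (adjusted p = 6.4e-10 and 1.98e-09). Ddr1, its relative that also binds collagen IV, rose by 1.11 ± 0.11 in KO and 0.61 ± 0.12 in D395A (adjusted p = 2.4e-06 and 0.00054). Adgrg6, an adhesion receptor that binds collagen IV and laminin, read 4.03 and 4.6 CPM (WT), 0.626 and 0.691 (KO) and 1.15 and 1.39 (D395A) and fell by 2.71 ± 0.29 and 1.75 ± 0.28 (adjusted p = 4.01e-06 and 0.000104). Itga1, an integrin chain for collagen, was highest in D395A, with 0.0983 and 0.11 CPM (WT), 0.284 and 0.375 (KO) and 2.73 and 3.08 (D395A), and rose there by 4.76 ± 0.52 (adjusted p = 3.8e-06). Its KO value of 1.63 ± 0.57 (adjusted p = 0.024) had an adjusted p of 0.056 to 0.11 without WT replicate 1, WT replicate 2, KO replicate 2 or D395A replicate 2. Sdc4, a cell surface proteoglycan, rose in KO by 1.43 ± 0.06 (adjusted p = 9.2e-10) and was -0.0379 ± 0.06 in D395A (adjusted p = 0.605). Dag1, the laminin receptor dystroglycan, rose by 0.899 ± 0.08 in KO and 0.702 ± 0.08 in D395A (adjusted p = 4.4e-07 and 3.9e-06).

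Matrix proteases and their inhibitors, 17 tested of 25, rose in 10 cases and fell in 4 in KO (58.8% and 23.5%, beside 33.6% and 32.6% of all genes; median 0.97), and rose in 9 and fell in 5 in D395A (52.9% and 29.4%, beside 36.3% and 34.0%; median 0.2996). Mmp16, a membrane-bound protease, had 6 and 0 counts (WT), 40 and 66 (KO) and 156 and 240 (D395A). It rose in KO by 4.23 ± 0.596 (adjusted p = 4.01e-05) and in D395A by 6.36 ± 0.55 (adjusted p = 4.1e-07). Without WT replicate 1 these became 8.66 and 10.78, and they were 3.33 and 5.46 without WT replicate 2. Mmp23, another membrane-bound protease, rose by 2.47 ± 0.25 in KO and 1.68 ± 0.26 in D395A (adjusted p = 2.4e-06 and 8.4e-05). Timp3, a matrix-bound inhibitor, rose in KO by 2.48 ± 0.15 (adjusted p = 1.8e-08), with opposite-strand exons over 21.3% of its exon bases. Its D395A value of 0.46 ± 0.17 (adjusted p = 0.026) became 0.41, 0.51 and 0.25 without WT replicate 1, WT replicate 2 and D395A replicate 1 (adjusted p = 0.12, 0.058 and 0.22). Mmp11 fell by 0.801 ± 0.08 in KO and 0.76 ± 0.08 in D395A (adjusted p = 2.01e-06 and 3.4e-06). Mmp15 fell in KO by 1.06 ± 0.13 (adjusted p = 1.3e-05), while its D395A value was 0.35 ± 0.12 (adjusted p = 0.024), or 0.204, 0.33 and 0.37 without WT replicate 2, D395A replicate 1 and D395A replicate 2 (adjusted p = 0.22, 0.083 and 0.066). Mmp17 fell in D395A by 1.14 ± 0.08 (adjusted p = 9.3e-08) and was 0.31 ± 0.08 in KO (adjusted p = 0.00302), or 0.23 without WT replicate 2 (adjusted p = 0.054).

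Markers of cell types that make these proteins were measured beside them, and their part in the results was not tested. The counts below stand beside 33.6% of all genes higher and 32.6% lower in KO, and 36.3% and 34.0% in D395A. Extraembryonic endoderm, a rich source of Lama1 and collagen IV, was covered by 16 markers with a summed level of 24 and 23.9 CPM (WT), 37.6 and 45 (KO), 49.3 and 52.1 (D395A). Of 12 tested, 5 rose and 3 fell in KO, and 3 rose and 4 fell in D395A. The list's median log2 fold changes were 0.7 (KO) and 0.09 (D395A). In WT, KO and D395A, 0, 1 and 2 markers of extraembryonic endoderm were at 0 counts. Its defining factor Gata4 fell in both lines, with 5.68 and 4.8 CPM (WT), 1.71 and 2.25 (KO) and 1.11 and 1.39 (D395A), while Foxa2, another endoderm factor, rose in both, with 0.0738 and 0.138 CPM (WT), 0.597 and 1.3 (KO) and 20.2 and 22.5 (D395A). Foxa2 made up much of the D395A sum, which therefore does not describe the endoderm list as a whole. Fibroblast and mesenchyme markers, 15 genes, summed to 25 and 24.8 CPM (WT), 25.7 and 26.7 (KO), 27.6 and 21.7 (D395A). Of these, 8 were at 0 counts in WT, 5 in KO and 2 in D395A, with Dpt at 0 in every library. Of 9 tested, 4 rose and 1 fell in KO and 7 rose and 2 fell in D395A. A marker at 0 counts in WT could be tested only if present in a mutant line, where it could only be higher than WT. The 2 mesenchyme markers that fell in D395A did so by at least 2-fold, the lowest log2 fold change being -2.6. Among markers without counts in WT, Dcn, which encodes the fibril proteoglycan decorin, had 0 and 0 counts (WT), 0 and 7 (KO) and 38 and 34 (D395A). Libraries of a line could differ in these markers, as for the mesenchymal factor Prrx1, with 0 and 0 counts (WT), 3 and 41 (KO) and 66 and 11 (D395A).

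Trophoblast markers, 11 genes, summed to 74.5 and 74.6 CPM (WT), 70.1 and 68.4 (KO), 92.9 and 87.6 (D395A), with 3 of 9 tested higher and 1 lower in KO, 6 higher and 1 lower in D395A, and 1 at 0 in D395A. Neural markers, 10 genes, summed to 96.5 and 92.4 CPM (WT), 58.4 and 61.8 (KO), 71.9 and 62.7 (D395A). Of these, 0 of 8 tested were higher and 3 lower in KO, 5 were higher and 3 lower in D395A, and 2 were at 0 in WT. Endothelial and blood markers, 9 genes, summed to 295 and 294 CPM (WT), 122 and 118 (KO), 56.3 and 66.3 (D395A), with 3 of 6 tested higher and 1 lower in KO, 2 higher and 1 lower in D395A, and the globin genes Hba-a1 and Hbb-bt at 0 counts throughout. This sum fell although only 1 gene was called lower in each line, and the median log2 fold changes were 0.27 (KO) and 0.52 (D395A). It therefore does not describe the list as a whole.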

How the data were processed

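The deposited files hold raw counts, whole-number read counts per gene symbol made by the authors, for 6 libraries. Per the submitters' processing notes, Trimmomatic 0.36, STAR 2.7, HTSeq 0.11.2 and the mm10 build were used; per the labels' protocols, total RNA was depleted of ribosomal RNA before a directional library kit. The strand setting and the gene annotation used for counting are not stated in these sources. Summary lines that name no gene, 29.0% to 44.2% of a file's total, were left out. Rn45s, a ribosomal RNA precursor, still held 10.8% and 11.2% of gene counts (WT), 16.7% and 15.7% (KO) and 14.3% and 13.9% (D395A).

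Gene counts were filtered with filterByExpr, scaled with TMM factors and fitted with edgeR 4.0.16 (R 4.3.3) as a single quasi-likelihood model of the 3 groups, with 3 residual degrees of freedom; p-values were adjusted over 15663 genes within each comparison, at a threshold of 0.05. Counts were simulated in a single draw per comparison, with known changes in far fewer genes than were called here. More than the nominal share of calls was false each time, by differing amounts. This does not give the false share of the reported calls. Alternatives were DESeq2 1.42.0, limma-voom (limma 3.58.1), other scalings and filters, a robust fit, only the 2 groups compared, the replicate block and leaving out each library. Positions and exon lengths came from GENCODE M21 (97.89% of symbols matched) and promoters from RefSeq.

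Genes, lists and tests were chosen with earlier results of these data known. Named by rule were genes with a group mean of at least 1 CPM, others called with at least a 2-fold change against WT, and at most 2 rises and 2 falls at 2 CPM or more from each further list. Col9a3, Col12a1, Col14a1, the 8 untested genes, and the markers Gata4, Foxa2, Dpt, Dcn, Prrx1, Hba-a1 and Hbb-bt were named after their values were seen. Floors are 3 counts over a group and cover counting error of that group only, with the other group's counts taken as observed. Intervals cover counting error only. The result of 1 gene is not reported here.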

Additional observations from a re-analysis of the deposited data

How the results depend on the processing

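The number of collagen and laminin genes called stayed within 1.5 times the reported count under every alternative run. Leaving out each library gave 23 to 30 calls for KO against WT, 25 to 35 for D395A against WT and 24 to 29 for D395A against KO; the other alternatives gave 24 to 31, 24 to 35 and 22 to 32. With the replicate number as a block, 26, 31 and 26 genes were called. Same-numbered libraries did not deviate together (correlations of 0.014, 0.0096 and -0.21), so the numbers are not taken to pair them. With the block, Col11a2, Col17a1 and Col7a1 in KO, Col11a2 and Col9a2 in D395A, and Col6a1 and Col6a5 in D395A against KO were no longer called; no other call on a collagen or laminin gene was lost.

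Values over the named collagen and laminin genes and alternatives kept direction and side of the threshold in 1673 cases, lost the call in 76, gained it in 31 and changed sign in 16; no value that changed sign was called in the reported test. In D395A against WT, Col22a1 became 0.00678 under limma-voom, and leaving out libraries gave -0.19 to 0.12 for Col22a1, -0.19 to 0.0368 for Col5a1, -0.57 to 0.36 for Col7a1 and -0.18 to 0.0445 for Tinagl1. In D395A against KO, Col11a2 became -0.0333 under limma-voom, and leaving out libraries gave -0.29 to 0.32 for Col11a2, -0.25 to 0.73 for Col23a1, -0.25 to 0.035 for Col6a4 and -0.18 to 0.0384 for Lamc1. In KO against WT, P3h2 became 0.0175 under limma-voom, and leaving out libraries gave -0.62 to 0.77 for P3h2, -0.68 to 0.49 for Col6a2 and -0.94 to 0.0519 for Lamc3. The cause was not tested. Calls for receptors in D395A against KO fell to 9 with only those groups fitted, and calls for proteases in D395A against WT to 9 without D395A replicate 1. Depth limits genes under about 1 CPM, where a call rests on few counts.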
